A study of Mus musculus with 18 samples.

Results

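The 10 chemokine genes described here, Cxcl9, Cxcl10, Cxcl13, Ccl2, Ccl5, Ccl8, Cxcl12, Cxcl14, Cxcl15 and Cxcl17, were found by symbol among the 55469 genes of the mouse prostate RNA sequencing, and each had 1 row in every table. They were divided by what is known of them into 6 inducible members (Cxcl9, Cxcl10, Cxcl13, Ccl2, Ccl5 and Ccl8) and 4 constitutive members (Cxcl12, Cxcl14, Cxcl15 and Cxcl17). Total RNA came from ventral and lateral lobes of male mice in 6 groups of 3 libraries, namely WT (ELAC2+/+), KO (ELAC2-/-) and A537T (homozygous for ELAC2A537T) at 10 and at 30 weeks of age. The strain is labelled C56NL/6N, and mice were matched to littermates of the same age. ELAC2 is the RNase Z that cuts the 3′ ends of tRNA precursors. In KO mice Pb-Cre, which is driven by the probasin promoter of prostate epithelium, removed exon 8, so other cells of the gland kept the gene, whereas A537T mice carried the substitution in all cells. None of the 6 groups carried the TRAMP transgene. A table holds 1 mutant group with the WT libraries of its age, so both lines share those controls.

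Chemokines are small secreted proteins that guide cells along gradients through G protein-coupled receptors. Inducible chemokines are made when cells meet interferons, tumour necrosis factor or microbial products, and bring lymphocytes and monocytes into inflamed tissue. Constitutive chemokines are made by stroma or epithelium at rest and keep cells in place or act at mucosal surfaces. The prostate is a gland of secretory epithelium in a sheath of fibroblasts and smooth muscle, and its stroma is a known source of Cxcl12.

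The genes lie on 5 chromosomes of GRCm38, and all are protein coding. Chromosome 5 holds Cxcl15 (90794534 to 90803067, forward), Cxcl9 (92321347 to 92328079, reverse), Cxcl10 (92346638 to 92348889, reverse) and Cxcl13 (95956951 to 95961068, forward). Chromosome 11 holds Ccl2 (82035571 to 82037453, forward), Ccl8 (82115185 to 82116799, forward) and Ccl5 (83525778 to 83530518, reverse). Cxcl12 lies on chromosome 6 (117168535 to 117181367, forward), Cxcl14 on chromosome 13 (56288643 to 56296551, reverse) and Cxcl17 on chromosome 7 (25400053 to 25412886, reverse).

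The 250 bases before the RefSeq start of 4 members are printed because these genes stand for the contrast described here: Cxcl10 as an interferon target, Cxcl13 as the member that set A537T apart from WT at both ages, and Cxcl12 and Cxcl14 as the most read constitutive members. The sequences are from RefSeq on GRCm38.p6, in the direction of the gene, and capitals mark matches on either strand to an ISRE (GAAA, any 2 bases, GAAA), a GAS element (TTCNNNGAA), an NF-kB site or a TATA box (TATAAA).
Cxcl10: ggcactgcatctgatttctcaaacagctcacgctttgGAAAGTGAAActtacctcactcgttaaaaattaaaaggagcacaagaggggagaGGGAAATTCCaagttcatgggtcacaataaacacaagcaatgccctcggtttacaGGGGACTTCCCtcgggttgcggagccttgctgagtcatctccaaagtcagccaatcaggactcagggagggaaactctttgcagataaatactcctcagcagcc
Cxcl13: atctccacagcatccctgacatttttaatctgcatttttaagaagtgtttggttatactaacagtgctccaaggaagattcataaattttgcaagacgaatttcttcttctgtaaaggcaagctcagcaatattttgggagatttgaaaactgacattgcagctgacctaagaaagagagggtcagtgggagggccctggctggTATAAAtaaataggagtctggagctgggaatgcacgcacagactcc
Cxcl12: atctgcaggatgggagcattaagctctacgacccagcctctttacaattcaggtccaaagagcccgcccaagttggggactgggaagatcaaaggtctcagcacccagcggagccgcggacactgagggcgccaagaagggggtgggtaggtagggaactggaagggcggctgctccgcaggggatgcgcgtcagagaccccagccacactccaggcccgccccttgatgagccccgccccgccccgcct
Cxcl14: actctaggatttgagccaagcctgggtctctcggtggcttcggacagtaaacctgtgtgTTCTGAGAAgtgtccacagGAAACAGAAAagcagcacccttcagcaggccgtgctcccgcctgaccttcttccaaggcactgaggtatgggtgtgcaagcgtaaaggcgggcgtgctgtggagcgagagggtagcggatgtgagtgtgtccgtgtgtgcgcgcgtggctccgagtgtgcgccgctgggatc
They run from 92348890 to 92349139 on chromosome 5 (reverse) for Cxcl10, from 95956689 to 95956938 on chromosome 5 (forward) for Cxcl13, from 117168285 to 117168534 on chromosome 6 (forward) for Cxcl12, and from 56296552 to 56296801 on chromosome 13 (reverse) for Cxcl14. Distances are counted from the RefSeq start, which for Cxcl13 lies a few bases before the GENCODE start given above.

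Promoters of 7 members were matched, the other 3 being Cxcl9, Cxcl15 and Ccl8, while Cxcl17, Ccl2 and Ccl5 are named only. The Cxcl10 promoter held 1 ISRE match, starting 213 bases before the start, and 3 NF-kB matches, some of which overlap, the last of them starting 103 bases before it. That of Cxcl14 held 1 ISRE and 1 GAS match. Those of Cxcl13, Cxcl9, Cxcl15 and Ccl8 each held 1 TATA box match and no ISRE, GAS or NF-kB match. The TATA box match lay 46 bases before the start in Cxcl13, 195 in Cxcl9, 27 in Cxcl15 and 32 in Ccl8. None of the 4 patterns was found in the Cxcl12 window. Among 32851 promoters of the same length, 2.98% held an ISRE match, 7.02% a GAS match, 7.25% an NF-kB match and 12.4% a TATA box match. A match is a description of letters and not a binding site.

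Libraries held 6569642 to 11225281 reads, with a median of 8586877. Elac2, the targeted gene, had 119, 111 and 115.5 normalized counts in KO against 124, 142 and 166 in WT at 10 weeks, and 98.4, 151 and 122 against 149.6, 153 and 194 at 30 weeks. In A537T, whose substitution leaves the gene in place, it had 173, 165 and 158 against 126, 143 and 167 at 10 weeks and 120.5, 189 and 114 against 147, 150.2 and 191 at 30 weeks. Its KO and WT groups did not overlap at 10 weeks and overlapped at 30 weeks through KO library 5AF (151). On the scale of each library's own total (RPM, reads per 1000000 recovered reads) they overlapped at 10 weeks too, with 16.06, 13.7 and 15.4 in KO against 15.5, 16.7 and 16.06 in WT, while A537T had 18.99 to 20.2, so this check of the labels depended on the scaling. Counts per gene hold transcripts that lack exon 8 as well as intact ones. Markers of prostate luminal epithelium such as Pbsn took 0.146 to 0.513% of reads, so the labelled tissue was present in all 18 libraries. Other tissues varied far more. Reads in 7 seminal vesicle genes, led by Svs2, reached 1% or more in WT libraries 10AF and 11AF, in all 3 KO libraries at 10 weeks, and in KO 4AF and 6AF and A537T 7AF and 9AF at 30 weeks, with at most 10.3%, and were at most 0.191% elsewhere. Reads in 14 skeletal muscle genes, led by Myh4, at 10 weeks made up 1.54 to 5.37% in WT, 0.519 to 1.62% in A537T and 0.0265 to 0.85% in KO, and never more than 0.0359% at 30 weeks. Tissue share and genotype therefore cannot be told apart in full, and in bulk RNA fewer cells of a type and less RNA per cell cannot be told apart either.

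The 10 genes together had 12137 reads over the 18 libraries, of which Cxcl12 and Cxcl14 took 9866. The constitutive members summed to 339 to 922 reads in a library and the inducible members to 20 to 160. Cxcl12, which holds leukocytes and progenitors near stroma through Cxcr4, had at most 650 reads per library, and Cxcl14, an epithelial and stromal chemokine, had 121 to 295. Cxcl17, made by mucosal epithelium, had 4 to 191 reads and Cxcl13, the B cell attractant, 11 to 107. Cxcl10, Ccl8, Cxcl15, Cxcl9 and Ccl5 had totals of 155 to 198 reads over the 18 libraries. Ccl2, the main monocyte attractant, had 60, with 11 libraries at 3 reads or fewer and 2 at 0, where a count of 0 allows up to 3 reads. A library at 0 was also seen once for Ccl5. These limits cover counting error only.

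Levels were set against each other only per length, as RPKM (reads per kilobase of exon per 1000000 reads). The order of the medians was Cxcl14 (12.9 RPKM), Cxcl12 (5.36), Cxcl17 (4.43), Cxcl13 (2.74), Ccl8 (1.71), Ccl5 (0.825), Cxcl10 (0.589), Cxcl15 (0.434), Cxcl9 (0.305) and Ccl2 (0.236). Cxcl14 lay above Cxcl12 in 18 of 18 libraries, although their ranges over libraries overlapped. Cxcl12 exceeded Cxcl17 in 10 of 18 libraries and Cxcl17 exceeded Cxcl13 in 9, so these neighbours did not differ beyond their spread. Lower in the order, Cxcl13 exceeded Ccl8 in 14 libraries, Ccl8 exceeded Ccl5 in 14 and Ccl5 exceeded Cxcl10 in 13. All exons of a gene were counted in its length, and the long exons of Cxcl12 (8176 bases in all) lower its level per length.

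**Figure D1:**
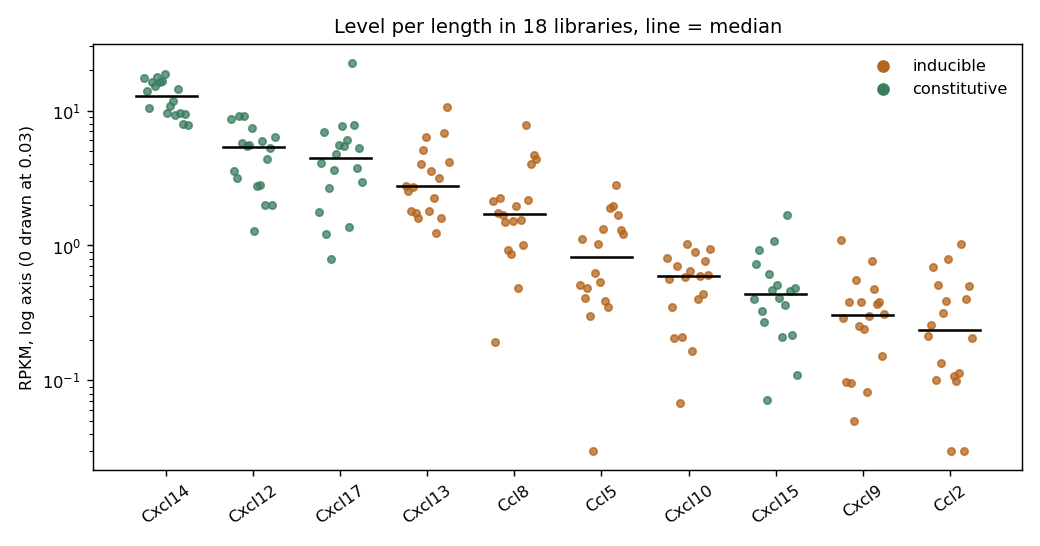
Level per length of the 10 chemokines (RPKM, log axis) in 18 libraries, each point 1 library and each line the median, with inducible members in brown and constitutive members in green. Cxcl14 has the highest median (12.9) and Ccl2 the lowest (0.236), and the constitutive Cxcl15 (0.434) lies among the inducible members.

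The division into inducible and constitutive members was only partly visible as a difference in spread. Over the 18 libraries the coefficient of variation of RPM was 28.5% for Cxcl14 and 49.3% for Cxcl12. It was 50.7% for Cxcl10, 67.7% for Cxcl13, 73.9% for Ccl5, 74.5% for Cxcl9, 82.5% for Ccl8 and 87.6% for Ccl2. Cxcl15, a chemokine of mucosal epithelium, varied by 75.3% and Cxcl17 by 91.7%, so the coefficients of 2 of the 4 constitutive members were as large as those of the inducible ones. Low counts add to the spread of Cxcl9, Cxcl10, Ccl5, Ccl8 and Cxcl15 (155 to 198 reads over the 18 libraries) and Ccl2 (60). For Cxcl17, library 5AF had 17.02 RPM and no other library had more than 5.90. These coefficients therefore do not by themselves compare both kinds. Cxcl14 spanned 14.2 to 34.2 RPM, a ratio of 2.41, whereas Cxcl17 spanned 0.61 to 17.02, a ratio of 27.9.

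Correlations among the inducible members were uneven. The following correlations are descriptions over 18 libraries that share depth, age and tissue make-up, on the log2 scale of RPM. Counting error at low counts draws r towards 0, so a low r does not show that such genes vary apart. Cxcl9 and Cxcl10, neighbouring genes that share the receptor Cxcr3, had r = 0.42, and Cxcl9 and Ccl5 had r = 0.55. Cxcl13 had r = 0.07 with Cxcl9, 0.32 with Cxcl10 and 0.50 with Ccl2. Among the constitutive members Cxcl15 and Cxcl17 had r = 0.68 and Cxcl12 and Cxcl17 had r = -0.76.

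**Figure D2:**
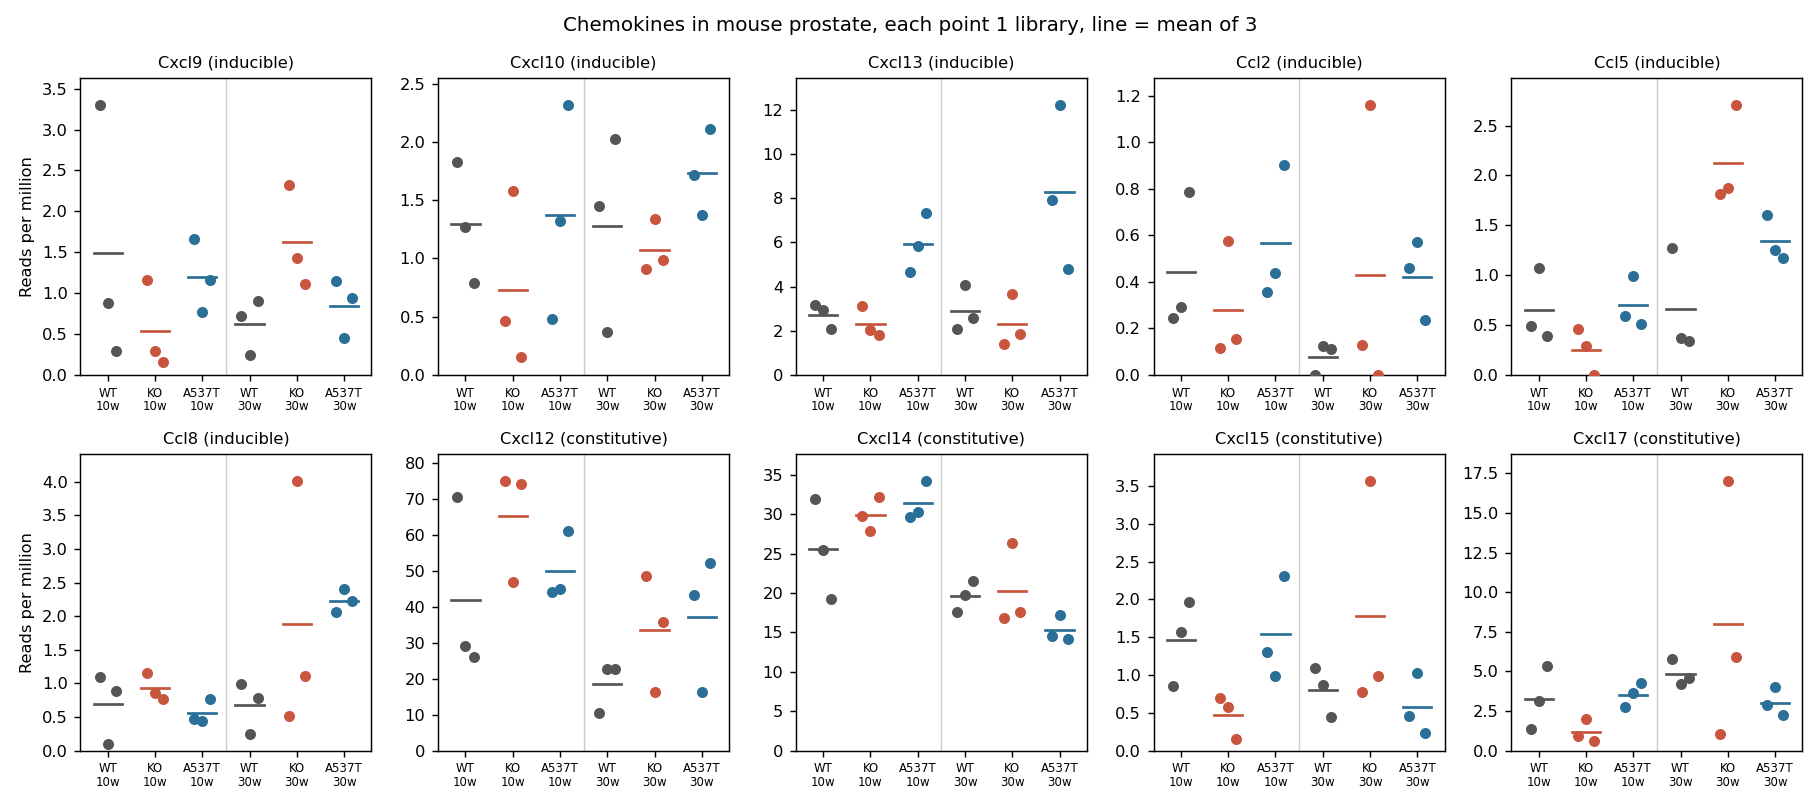
RPM of each chemokine in the 18 libraries by genotype and age, each point 1 library and each line the mean of 3. Cxcl13 is high in the 6 A537T libraries (4.64 to 12.2 RPM), and KO library 5AF at 30 weeks is the highest for Cxcl17 (17.02), Cxcl15 (3.56), Ccl8 (4.01) and Ccl2 (1.16).

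Mutant and WT libraries of a table were compared by limma on log2(normalized count + 1), which understates the change of low genes. No member passed a Benjamini-Hochberg adjusted p of 0.05 in any of the 4 comparisons, and neither did any other gene, so percent called was 0 in each. A test needed an average of 10 normalized counts over the table, which 4 members had for KO at 10 weeks, 7 for A537T at 10 weeks, 9 for KO at 30 weeks and 6 for A537T at 30 weeks. At an unadjusted p under 0.05 the count was 0 members in KO at 10 weeks (19.4% of all genes tested), 1 in A537T at 10 weeks (6.43%), 1 in KO at 30 weeks (11%) and 4 in A537T at 30 weeks (13.6%). The member in KO at 30 weeks was Ccl5 and 1 of the 4 in A537T was Ccl8. Each reached the average of 10 only through the mutant libraries, so the filter itself favoured a positive change. On recovered reads edgeR called 0 members in every comparison, and DESeq2 called 1, Cxcl13 in A537T at 30 weeks, where it called 3.28% of genes. Its calls were 4.75% of genes for KO at 10 weeks, 0.608% for A537T at 10 weeks and 1.94% for KO at 30 weeks, with 0 members among them.

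All 10 members had a mean of at least 1, and for these the groups were also compared by overlap. In KO at 10 weeks 2 members lay below WT without overlap and none above (Cxcl15 and, on the scale of the table but not as RPM, Ccl5), where 22.8% of genes with a mean of at least 1 did not overlap (10.9% above and 11.9% below). In A537T at 10 weeks 1 member lay above, against 11.6% of genes (5.53% above and 6.09% below). In KO at 30 weeks 2 members lay above, against 15.1% of genes (8.02% above and 7.12% below). In A537T at 30 weeks 3 lay above and 2 below, against 17% of genes (8.89% above and 8.12% below). The shares of members were near the background in the first 3 comparisons and above it in the last, where it was 5 of 10.

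**Figure D3:**
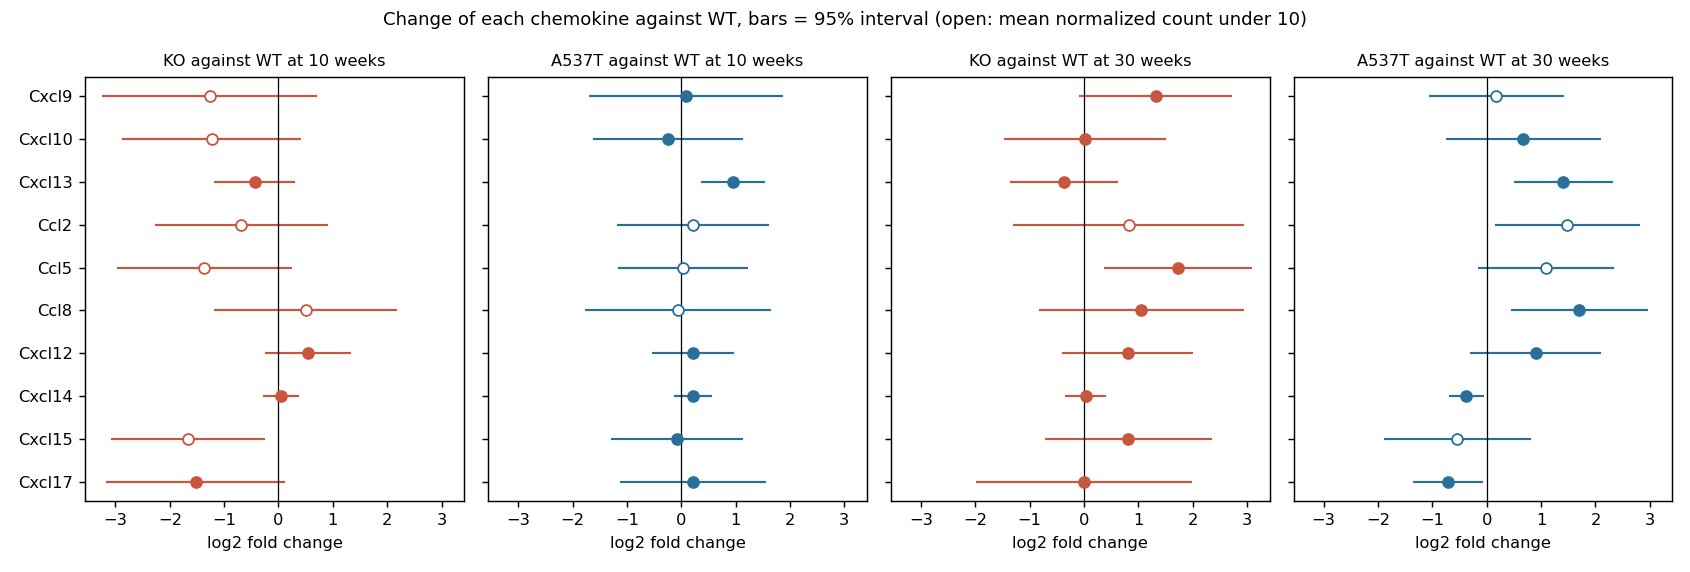
The log2 fold change of each chemokine against WT in the 4 comparisons, with 95% intervals from limma; filled points are genes that were tested, and open points come from a fit with a minimum of 1. The interval of Cxcl13 lies above 0 in A537T at both ages (0.36 to 1.54 and 0.50 to 2.32), and that of Cxcl14 is the narrowest in each panel.

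Cxcl13, which attracts B cells through Cxcr5 and is made by follicular stromal cells and by macrophages, was the member that separated A537T from WT at both ages. At 10 weeks it had 41.5, 50.4 and 57.5 normalized counts in A537T and 26.9, 25.9 and 22.4 in WT. At 30 weeks it had 69.3, 103 and 44.9 in A537T and 18.4, 37.8 and 22.8 in WT. Every A537T library was above every WT library of its age. The means were 49.8 ± 8.02 (SD, n = 3) against 25.1 ± 2.40 at 10 weeks and 72.5 ± 29.2 against 26.4 ± 10.2 at 30 weeks. The log2 fold change was 0.95 (SE 0.25, limma adjusted p = 0.746) at 10 weeks and 1.41 (SE 0.39, limma adjusted p = 0.273) at 30 weeks. With DESeq2 on recovered reads the change at 30 weeks was 1.48 with an adjusted p of 0.0482. Over the alternatives tried the change ran from 0.68 to 1.11 at 10 weeks and from 1.12 to 2.01 at 30 weeks.

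In KO the gene did not separate from WT. It had 23.2, 16.4 and 13.7 normalized counts against 25.4, 24.99 and 21.4 in WT at 10 weeks, and 13.5, 30.1 and 17.4 against 18.5, 38.0 and 22.8 at 30 weeks. The log2 fold changes were -0.44 (SE 0.31, limma adjusted p = 0.448) and -0.37 (SE 0.42, adjusted p = 0.760), and the groups overlapped at both ages. The lines were normalized in separate tables, so the difference between A537T and KO was not tested. On the RPM scale, where each library is set on its own total, A537T spanned 4.64 to 7.33 and KO 1.83 to 3.12 at 10 weeks, and 4.81 to 12.2 and 1.42 to 3.65 at 30 weeks. At 10 weeks seminal vesicle reads were 6.53 to 10.3% in KO and at most 0.191% in A537T. Line and tissue share therefore cannot be told apart at that age.

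**Figure D4:**
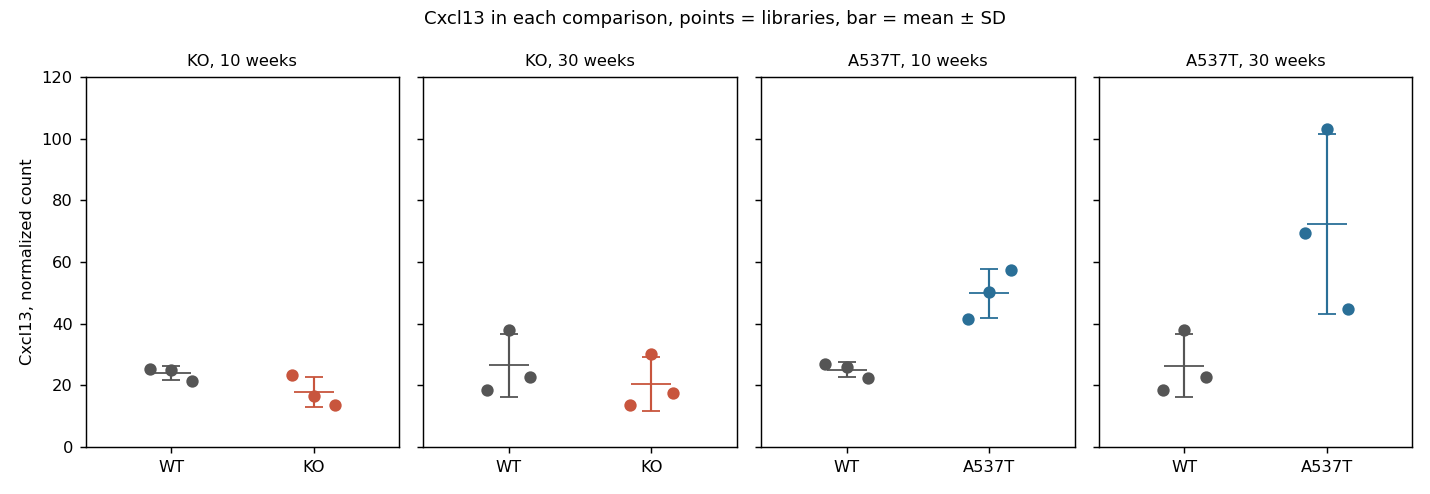
Normalized counts of Cxcl13 in each of the 4 tables, with points for libraries and bars for the mean ± SD of 3. The A537T libraries (41.5 to 57.5 at 10 weeks and 44.9 to 103 at 30 weeks) lie above all WT libraries of their table, and the KO libraries overlap with WT.

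The mean of both A537T changes of Cxcl13 was 1.182, with an exact two-sided permutation p of 0.005 within age (n = 3 per group), which is the smallest that 400 arrangements can give, and 0.045 after adjustment over 9 tests. This test was chosen after the values were seen. The adjusted p was 0.09 without library 1AF, 3AF, 7AF or 8AF, and in each case the mean stayed above 1. The change at 30 weeks exceeded that at 10 weeks by 0.45 (exact permutation p = 0.61, n = 3 per group).

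Among 14067 genes with a mean of at least 10 in all tables, those most like Cxcl13 over the 18 libraries were Ifi44 (r = 0.89), an interferon-stimulated gene, Cmpk2 (r = 0.85), likewise interferon-stimulated, and Mrc1 (r = 0.84), the mannose receptor of macrophages. These genes were picked for their likeness to Cxcl13 in the same libraries, so their values are a description and no separate evidence. Ifi44 had 36.9 ± 8.25 normalized counts (SD, n = 3) in A537T against 16.3 ± 1.81 in WT at 10 weeks, and spanned 48.2 to 78.1 against 7.22 to 14.9 at 30 weeks. Its log2 fold changes were 1.11 and 2.29. Cmpk2 was above WT without overlap in A537T at 10 weeks (62.4 against 51.9 normalized counts) and below it in KO at both ages, with 33.4 against 52.7 and 38.7 against 55.3.

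Markers of immune cells were read beside Cxcl13. The 9 macrophage markers summed to 0.0173 to 0.0381% of reads in A537T and 0.0108 to 0.0136% in WT at 30 weeks. Of the 9, 7 were higher at an unadjusted limma p under 0.05, beside 1087 of all 14789 genes tested. At 10 weeks the sums overlapped (0.0155 to 0.0223% and 0.0147 to 0.0185%), and 0 of 8 tested were higher, beside 418 of all 15131 genes. The 8 B and plasma cell markers summed to 0.0228 to 0.104% in A537T against 0.00674 to 0.0113% in WT at 30 weeks, led by Ighm (3159 against 549 normalized counts), Igkc (1348 against 211) and Jchain (383 against 80.3). At 10 weeks these sums were 0.00227 to 0.00481% and 0.00195 to 0.00309%, and Igkc alone lay above WT without overlap (60.6 to 77.1 against 23.4 to 48.4 normalized counts). Library 8AF was the highest of all 18 for Cxcl13 and for both lists. Over the 18 libraries Cxcl13 had r = 0.74 with the summed macrophage markers and 0.55 with the B and plasma cell markers. The 6 lymph node and follicle markers summed to 65 to 162 reads in A537T and 28 to 194 in WT at 10 weeks. Most of these were from Ccl21a, which is also made by lymphatic vessels, with 65 to 157 reads in A537T at that age, and Ccl19 had at most 6 reads in any library. Of the others, Madcam1 and Glycam1 had at most 1 read and Fcer2a at most 7 in any library. Cr2, a complement receptor of B cells and follicular dendritic cells, was at 0 in all 3 A537T libraries at 10 weeks. In KO at 10 weeks 1 of the 3 listed genes with a mean of at least 1 lay above WT without overlap (10.9% of genes). At 30 weeks Cr2 spanned 11.6 to 137 normalized counts in A537T and 11.7 to 187 in KO, and at most 3.46 in WT. The share of reads of the whole list also lay above WT without overlap in both lines at that age. It was 0.00139 to 0.00265% in A537T, 0.00143 to 0.003% in KO and 0.000498 to 0.00127% in WT. The part of cell numbers in the Cxcl13 values was not tested.

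The Cxcl13 receptor gene Cxcr5 was close to the limit of detection. It had 2.35 ± 4.08 normalized counts (SD, n = 3) in A537T against 0.70 ± 0.61 in WT at 10 weeks, and 6.23 ± 6.30 against 2.02 ± 1.11 at 30 weeks, with overlap at both ages. In KO at 30 weeks it had 5.02 ± 1.73 against 2.03 ± 1.11, above without overlap, and at 10 weeks it was at 0.

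Ccl8 and Ccl2, ligands that draw monocytes, were the other inducible members above WT without overlap in A537T at 30 weeks. Ccl8 had 18.1, 20.2 and 20.8 normalized counts in A537T and 8.82, 2.29 and 6.93 in WT, with a log2 fold change of 1.70 (SE 0.54, limma adjusted p = 0.295). It passed the minimum mean of 10 only through the A537T libraries. Ccl2 had 4.02, 4.82 and 2.19 against 0, 1.15 and 0.99, which is 11 reads against 2 in all, too few for a firm ratio. At 10 weeks neither stood apart in A537T, with Ccl8 at 4.26, 3.81 and 6.05 against 9.32, 0.86 and 9.59, and Ccl2 at 3.19, 3.81 and 7.06 against 2.07, 2.59 and 8.52. In KO at 30 weeks Ccl8 had 4.92, 33.0 and 10.5 and Ccl2 1.23, 9.55 and 0, and both highest values came from library 5AF. WT had 8.85, 2.30 and 6.93 for Ccl8 and 0, 1.15 and 0.99 for Ccl2, so that for each gene 1 of the other two KO libraries lay within the WT range and 1 slightly above it (Ccl8 in 6AF and Ccl2 in 4AF). Macrophage markers took 0.0277% of reads in 5AF and 0.0118 and 0.0149% in 4AF and 6AF. In A537T at that age they took 0.0173 to 0.0381%, against 0.0108 to 0.0136% in WT. Over the 18 libraries their sum had r = 0.61 with Ccl8 and 0.66 with Ccl2. Their part in the Ccl8 and Ccl2 values was not tested.

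The monocyte receptor Ccr2, which binds Ccl2 and related ligands, had 96.7 ± 24.3 normalized counts (SD, n = 3) in A537T against 33.8 ± 4.96 in WT at 30 weeks, and 68.1 ± 10.8 in KO against 34.3 ± 5.34. The log2 fold changes were 1.47 (limma adjusted p = 0.164) and 0.97 (adjusted p = 0.375), with no overlap in either line. At 10 weeks the groups overlapped in both lines (changes of 0.29 and 0.07). Ccr1 was at 0.99 to 15.98 normalized counts without a separation in any comparison, and Ccr8, a receptor of mouse Ccl8, had at most 1 read in any library.

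Ccl5 and Cxcl9 were the inducible members above WT without overlap in KO at 30 weeks. Ccl5, a T cell and monocyte attractant that is also made by T and NK cells, had 17.2, 15.4 and 25.6 normalized counts in KO and 11.3, 3.46 and 2.97 in WT, with a log2 fold change of 1.73 (SE 0.58, limma adjusted p = 0.407). Cxcl9, an interferon gamma target, had 22.1, 11.7 and 10.5 against 6.43, 2.30 and 7.92, a change of 1.32 (SE 0.60, limma adjusted p = 0.470). Both passed the minimum mean only through the KO libraries. In A537T at 30 weeks Ccl5 had 14.1, 10.6 and 10.95 against 11.2, 3.44 and 2.97, where WT library 1AF alone reached the A537T values, and Cxcl9 overlapped (10.0, 3.86 and 8.76 against 7.22, 3.44 and 8.91).

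At 10 weeks the same genes did not lie above WT in KO. Ccl5 had 3.44, 2.34 and 0 normalized counts against 3.91, 9.16 and 4.08 in WT, below without overlap, with 6 reads in KO and 19 in WT. As RPM the groups overlapped (0.462, 0.287 and 0 against 0.488, 1.075 and 0.394). Cxcl9 had 8.59, 2.34 and 1.143 against 26.4, 7.50 and 3.06, where WT library 10AF alone held 27 of the 39 WT reads. Cxcl10, the closest relative of Cxcl9, overlapped between groups in all 4 comparisons, with log2 fold changes of -0.24 in A537T at 10 weeks, 0.01 in KO at 30 weeks and 0.67 in A537T at 30 weeks (limma adjusted p = 0.633 to 0.997). In KO at 10 weeks, where it was under the minimum, the change in the fit with a minimum mean of 1 was -1.23 (adjusted p = 0.403).

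T cell markers were at a low level. The 11 markers summed to 49 to 102 reads in KO and 29 to 77 in WT at 30 weeks, and to 22 to 27 and 17 to 31 at 10 weeks, overlapping at both ages. In A537T at 30 weeks, where Ccl5 and Cxcl9 overlapped with WT, they summed to 69 to 94 reads. As a share of reads that was 0.00079 to 0.00107%, above WT without overlap (0.000348 to 0.000698%). The KO share at that age, 0.000634 to 0.000909%, overlapped with WT. Lck, one of the most read, had 16.6 ± 6.15 normalized counts (SD, n = 3) in KO against 9.99 ± 8.97 in WT at 30 weeks. The 6 NK cell markers summed to 20 to 71 reads in KO and 26 to 42 in WT at that age. Over the 18 libraries Ccl5 had r = 0.68 with the NK and 0.56 with the T cell markers, and Cxcl9 had 0.25 and 0.12. The part of these cells in the chemokine values was not tested. Cxcr3, the receptor of Cxcl9 and Cxcl10, had 6.15 ± 2.66 normalized counts in KO against 1.98 ± 3.43 in WT at 30 weeks.

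Ifng, the main inducer of Cxcl9 and Cxcl10, was at 0 in every library but 1, where it had 1 read, which allows up to 3 reads in a library at 0. Irf1, an interferon-induced factor, was below WT without overlap at 10 weeks in A537T (157 against 186) and KO (139 against 176) and overlapped at 30 weeks. Of the 20 genes of interferon gamma and NF-kB signalling, 15 or 16 were tested, and at an unadjusted p under 0.05 these were 2 higher and 0 lower for KO at 10 weeks, 0 higher and 1 lower for A537T at 10 weeks, 3 higher and 1 lower for KO at 30 weeks, and 2 higher and 0 lower for A537T at 30 weeks. Of all genes tested 19.4, 6.43, 11 and 13.6% had such a p in either direction, in that order. The median change of the listed genes was 0.19, -0.00, 0.07 and 0.16, beside a median over all genes of -0.01, 0.01, -0.01 and -0.01.

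Cxcl14 was the steadiest member and was high in every library. At 10 weeks it had 222, 227 and 241 normalized counts in KO and 265, 263 and 268 in A537T, beside 255, 217 and 199 in WT on the scale of the KO table and 265, 221 and 203 on that of the A537T table. At 30 weeks it had 159.9, 217 and 166 in KO against 156, 184 and 189 in WT, and 128, 146 and 133 in A537T against 156, 184 and 189. The A537T libraries at 30 weeks were the only group that did not overlap with WT, with a log2 fold change of -0.38 (SE 0.14, limma adjusted p = 0.324). The other 3 changes were 0.05, 0.21 and 0.03, with 95% intervals of -0.29 to 0.38, -0.13 to 0.56 and -0.36 to 0.41. The change in A537T differed between the ages by -0.59 (exact permutation p = 0.015, adjusted p = 0.135 over 9 tests, n = 3 per group). Without WT library 10AF that difference was -0.70 with an adjusted p of 0.045. In RPM Cxcl14 spanned 19.2 to 34.2 at 10 weeks and 14.2 to 26.3 at 30 weeks, from tables that were normalized separately. At 30 weeks the 4 libraries above 1% seminal vesicle reads had 14.2 to 17.6 RPM, and the 5 under 1% had 17.2 to 26.3. A537T libraries 7AF (14.5) and 9AF (14.2) were above 1%, and 8AF (17.2) was under it. Every WT library of that age was under 1%, so tissue share and genotype cannot be told apart in full here.

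The genes most like Cxcl14 were Col1a1 (r = 0.90), a collagen of fibroblasts, Glis2 (r = 0.90), a zinc finger factor, and Sparc (r = 0.87), a matrix protein. Its r with the summed fibroblast markers was 0.80. Those markers took 0.107 to 0.169% of WT reads at 10 weeks and 0.0528 to 0.078% at 30 weeks. In A537T at 30 weeks they took 0.086 to 0.0909%, above all WT libraries, while Cxcl14 lay below them.

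Cxcl12 had its highest values where seminal vesicle reads were high. At 30 weeks it had 462, 133.6 and 339.6 normalized counts in KO (libraries 4AF, 5AF and 6AF) and 379.7, 139 and 489 in A537T (7AF, 8AF and 9AF), against 92.5, 212 and 200.97 in WT. The libraries 5AF and 8AF, each with 7 seminal vesicle reads, lay within the WT range. Over all genotypes the 5 libraries under 1% had 10.4 to 22.8 RPM of Cxcl12 and the 4 libraries above 1% had 35.9 to 52.4. The log2 fold changes were 0.80 in KO (limma adjusted p = 0.585) and 0.90 in A537T (adjusted p = 0.464). They became -0.09 and -0.05 with a seminal vesicle score as covariate, and -0.24 and -0.18 in the libraries under 1%. In the latter each mutant group is 1 library whose spread is assumed to be that of WT. No WT library of that age was above 1%, so the score fit also rests on 5AF or 8AF. Neither fit can separate seminal vesicle share from genotype.

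At 10 weeks the relation was looser. Cxcl12 had 558, 382 and 558 normalized counts in KO against 565, 249 and 269 in WT, and 396, 391 and 479 in A537T against 616, 265 and 289 in WT. The highest WT value came from 10AF, the WT library with most seminal vesicle reads (4.63%). The changes were 0.55 in KO (limma adjusted p = 0.384) and 0.22 in A537T (adjusted p = 0.886). Without 10AF the KO change was 0.92 with a limma adjusted p of 0.031, in a fit that called 2886 genes in all where the fit with 10AF called 0. The A537T libraries had 44.3 to 61.1 RPM with at most 0.191% seminal vesicle reads.

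**Figure D5:**
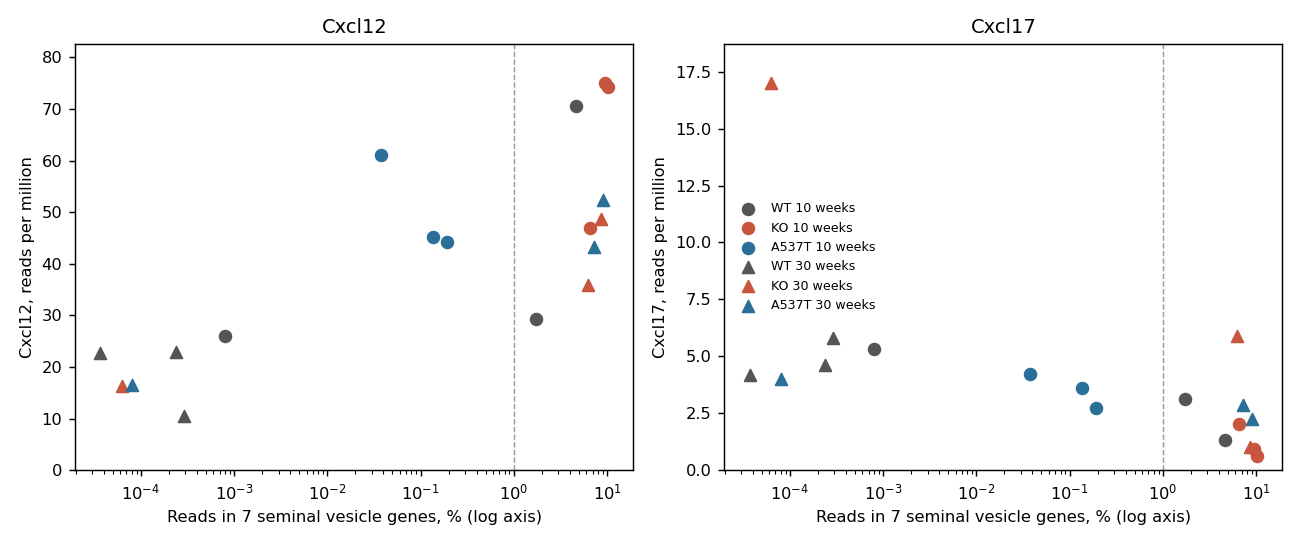
RPM of Cxcl12 (left) and Cxcl17 (right) against the percent of reads in 7 seminal vesicle genes (log axis), each point 1 library, with circles for 10 weeks and triangles for 30 weeks and a dashed line at 1%. At 30 weeks the libraries under 1% have 10.4 to 22.8 RPM of Cxcl12 and those above have 35.9 to 52.4.

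Over the 18 libraries Cxcl12 had r = 0.82 with the seminal vesicle markers, 0.83 with the smooth muscle markers and 0.84 with the endothelial markers, and the genes most like it were Sema3c (r = 0.97), a secreted guidance factor, Grb10 (r = 0.96), an adaptor of insulin signalling, and Adcyap1r1 (r = 0.96), the receptor of the peptide PACAP. Cxcr4, the signalling receptor, had 9.80 ± 2.58 normalized counts (SD, n = 3) in A537T against 20.3 ± 5.16 in WT at 10 weeks, a log2 fold change of -0.97 (limma adjusted p = 0.746), and overlapped with WT in the other comparisons. Ackr3, which removes Cxcl12 from the surroundings and was the most read receptor gene, had 119 to 135 in KO against 176 to 242 in WT at 30 weeks, a change of -0.69 (SE 0.15, limma adjusted p = 0.345). In A537T at that age its groups overlapped (97.5 to 260.3 against 179 to 247).

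Cxcl17 had r = -0.72 with the seminal vesicle markers over the 18 libraries. At 30 weeks the libraries above 1% had 1.03 to 5.90 RPM and those under 1% had 3.99 to 17.02, and KO library 6AF, with 6.31% seminal vesicle reads, lay above all WT libraries. At 10 weeks it had 6.87, 16.4 and 4.57 normalized counts in KO against 10.8, 26.7 and 55.1 in WT, with a log2 fold change of -1.53 (SE 0.69, limma adjusted p = 0.275). The 3 WT values fell in the opposite order to their seminal vesicle shares of 4.63, 1.74 and 0.000808%. In A537T it had 24.5, 31.4 and 33.3 against 10.4, 26.8 and 56.5, inside the WT range. At 30 weeks A537T had 25.1, 33.7 and 20.8 against 52.1, 39.0 and 40.6 in WT, below without overlap, a change of -0.72 (SE 0.27, limma adjusted p = 0.334), and the A537T library with 7 seminal vesicle reads (8AF, 33.7) was also below all WT libraries. The change was -0.40 with the seminal vesicle score and -0.36 in the libraries under 1%. Both values rest on 8AF, the only A537T library of that age under 1%, and cannot separate seminal vesicle share from genotype.

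In KO at 30 weeks Cxcl17 spanned from below to far above WT, with 9.84, 140.2 and 55.8 against 51.5, 39.2 and 40.6. The change of -0.00 had a 95% interval of -1.996 to 1.989, and it was -0.84 without 5AF and 1.01 without 4AF. The genes most like Cxcl17 were Edn1 (r = 0.89), endothelin, Rab15 (r = 0.89), a vesicle traffic GTPase, and Tyro3 (r = 0.88), a receptor kinase.

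Cxcl15 followed Cxcl17 at a lower level. In KO at 10 weeks it had 5.16, 4.68 and 1.143 normalized counts against 6.85, 13.3 and 20.4 in WT, below without overlap, with 11 reads against 43. The log2 fold change in a fit with a minimum mean of 1 was -1.67 (SE 0.61, limma adjusted p = 0.239). In the other comparisons its groups overlapped, and its highest value, 29.4 in KO at 30 weeks, again came from 5AF, without which Cxcl15 and Ccl8 would both average under 10 in that table.

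The other chemokine ligands gave the background for these members. Of 29 further ligand genes, 18 to 20 had a mean of at least 1 and 10 or 11 were tested in a comparison. At an unadjusted p under 0.05 these were 1 higher and 1 lower for KO at 10 weeks, 2 higher and 0 lower for A537T at 10 weeks, 1 higher and 2 lower for KO at 30 weeks, and 2 higher and 1 lower for A537T at 30 weeks. Of all genes tested 19.4, 6.43, 11 and 13.6% had such a p in either direction, in the same order. The most read of these ligands were Cx3cl1, which is membrane-bound, Ccl25 and Ccl21a, the last 2 known from gut and thymus and from lymphatic vessels. Cx3cl1 had 271 ± 80.9 normalized counts (SD, n = 3) in KO against 425 ± 61.0 in WT at 30 weeks, a log2 fold change of -0.68 (limma adjusted p = 0.407). Ccl25 and Ccl21a overlapped with WT in all 4 comparisons. Of 23 chemokine receptor genes 7 to 10 were tested, and 0, 3, 2 and 2 of them had an unadjusted p under 0.05, in the same order of comparisons. The 3 were 2 higher and 1 lower, the next 2 were 1 higher and 1 lower, and the last 2 were higher. The shares over all genes were those given for the ligands.

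The inducible members were set beside the constitutive ones by their counts. In A537T at 30 weeks 3 of the 6 inducible members lay above WT without overlap and 0 below, while 2 of the 4 constitutive members lay below and 0 above, where 8.89% of all genes lay above and 8.12% below. In KO at 30 weeks 2 of 6 inducible members lay above (8.02% of genes), and the 4 constitutive members overlapped with WT. At 10 weeks 1 of 6 inducible members lay above in A537T (5.53% of genes) and 1 below in KO (11.9%), and of the constitutive members 1 lay below in KO. Counts of 1 are near that background. Ccl2, 1 of the 3 in A537T at 30 weeks, had only 11 reads there against 2 in WT. All members come from the same libraries, with the same tissue make-up, so they are not separate results. The difference between both kinds was not tested.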

How the data were processed

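RNA sequencing covered 6 groups of prostate lobes, from 3 genotypes at 10 and 30 weeks of age. The authors trimmed reads with Trim Galore 0.4.1 and cutadapt 1.18, aligned them with STAR 2.7.3a to GRCm38.p6 masked for nuclear mitochondrial sequence (GENCODE vM24), and counted them per gene with Salmon and tximport, by strand. The deposited signal values are those counts, scaled by 1 size factor per library from DESeq2 1.26 within each of 4 tables of 6 libraries. The authors' own fold changes and s-values were not used. Columns carry no genotype: those shared by both tables of an age were taken as WT and the others as the mutant a table is named for, with no replicate number.

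Whole reads were recovered with at least 99.99% of values within 0.1 read of a whole multiple, and used for RPM, RPKM (exon lengths of GENCODE vM21, gene level) and tests with edgeR 4.0.16 and DESeq2 1.42.0. WT recovered reads differed between the tables of an age for 53.6 to 64.1% of expressed genes, by a median of 1 read, and the KO tables were used for WT. Genes whose normalized counts averaged 10 or more in a table were tested with limma 3.58.1 in R 4.3.3 (lmFit, eBayes with trend) on log2(normalized count + 1), with Benjamini-Hochberg adjustment over all genes and a threshold of 0.05. These steps were tested on simulated data. Ages were compared by exact permutation of genotype within age. Of the gene IDs, 54450 matched names exactly and 55107 after dropping versions.

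The members and lists were chosen with earlier results of these data known. The genes named are the members, Elac2, their receptors, Ifng and Irf1, the 3 most read genes of each list, and the 3 genes most correlated with each member that had a mean of at least 10 in every table, apart from a few that are not reported here. The rule does not cover Madcam1, Glycam1, Fcer2a and Cxcl16, which were picked with their values in view. Nothing states that libraries of a group came from separate cages or litters, so p-values measure the spread between these libraries.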

Additional observations from a re-analysis of the deposited data

Results flagged for a closer look

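On the scale of the tables, Ccl5 lay on opposite sides of WT in KO mice of the 2 ages. At 10 weeks every KO library lay below every WT library (3.44, 2.34 and 0 against 3.91, 9.16 and 4.08 normalized counts), with a log2 fold change of -1.37 (limma adjusted p = 0.354 in a fit with a minimum mean of 1). That separation was lost as RPM (0.462, 0.287 and 0 against 0.488, 1.075 and 0.394). At 30 weeks every KO library lay above (17.2, 15.4 and 25.6 against 11.3, 3.46 and 2.97), with a change of 1.73 (adjusted p = 0.407). The difference between the ages was not tested, since Ccl5 was under the minimum mean at 10 weeks, where KO and WT held 6 and 19 reads in all. Skeletal muscle genes took 0.0265 to 0.85% of KO and 1.54 to 5.37% of WT reads at 10 weeks and at most 0.0359% at 30 weeks, and their part in these values was not tested.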

How the results depend on the processing

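No paired analysis was possible because the columns carry no replicate numbers. Of 26 fold changes of the chemokines, 12 kept their direction under every alternative run and 14 did not. The causes of the reversals were not tested. The 12 included both Cxcl13 changes in A537T, Ccl5 and Cxcl9 in KO at 30 weeks, and Ccl8, Cxcl14 and Cxcl17 in A537T at 30 weeks. Of these, Ccl5, Cxcl9 and Ccl8 passed the minimum mean of 10 only through the mutant libraries. Ccl8 and Cxcl15 in KO at 30 weeks also kept their direction, and passed only through 1 library. For these members the filter itself favoured a positive change, so a kept direction does not bear on stability. DESeq2 called 715 and 90 genes for KO and A537T at 10 weeks and 285 and 476 at 30 weeks, against 0 with limma and edgeR, and 1 chemokine (Cxcl13, A537T, 30 weeks). At 10 weeks limma without a mean trend called 1 gene for KO and 2 for A537T, and with a minimum mean of 1 it called 2 in A537T at 10 weeks. Libraries under 1% seminal vesicle reads, chosen after seeing the data, gave 569 genes in A537T at 10 weeks, where 3 A537T libraries stood against 1 WT library (12AF), and 1 at 30 weeks, where 1 A537T library (8AF) stood against 3 of WT, so that the lone library is assumed to vary like the other group and neither count bears on stability, and the seminal vesicle score as covariate gave 3 in A537T at 30 weeks. That library choice was not run for KO at 10 weeks, where no KO library is under 1%.

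Leaving out each library in turn gave at 10 weeks 0 to 2886 genes for KO and 0 to 50 for A537T (both highest without 10AF), and at 30 weeks 0 to 944 for KO (without 5AF) and 0 to 1224 for A537T (without 8AF). It gave 0 to 1 chemokines in KO at 10 weeks (Cxcl12, without 10AF) and 0 to 1 chemokines whose change differed between ages in A537T (Cxcl14, without 10AF).

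With a skeletal muscle score the changes at 10 weeks reversed for Cxcl12 (-0.092), Cxcl14 (-0.055) and Cxcl17 (0.11) in KO and for Cxcl9 (-0.79), Cxcl12 (-0.30) and Cxcl15 (0.11) in A537T. A pseudocount of 8 reversed Cxcl9 in A537T at 10 weeks (-0.035) and Cxcl10 (-0.058) and Cxcl17 (0.10) in KO at 30 weeks. On recovered reads edgeR and DESeq2 reversed Cxcl9 (-0.31 in both) and Cxcl17 (-0.069 and -0.061) in A537T at 10 weeks, and Cxcl10 (-0.23 and -0.24) and Cxcl17 (0.68 and 0.66) in KO at 30 weeks. Libraries under 1% reversed Cxcl10 (0.18) and Cxcl17 (-0.91) in A537T at 10 weeks, against 12AF alone, the WT library with the most Cxcl17, Cxcl13 (0.25), Cxcl12 (-0.24) and Cxcl17 (1.67) in KO at 30 weeks, and Cxcl12 (-0.18) in A537T at 30 weeks. The seminal vesicle score reversed Cxcl13 (0.25), Cxcl12 (-0.095) and Cxcl17 (1.54) in KO and Cxcl12 (-0.048) in A537T at 30 weeks. No WT library of that age was above 1%, so this fit cannot separate seminal vesicle share from genotype. Scaling to equal totals reversed Cxcl15 in A537T at 10 weeks (0.057), the difference between ages of Cxcl13 in KO (-0.14) and the mean A537T change of Cxcl14 (0.00045).

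Leaving out a library reversed Cxcl10 (-0.66 to 0.28), Cxcl12 (-0.0058 to 0.60), Cxcl15 (-0.46 to 0.26), Cxcl17 (-0.39 to 0.78) and Cxcl9 (-0.55 to 0.33) in A537T at 10 weeks, Cxcl14 in KO at 10 weeks (-0.035 to 0.14), and Cxcl10 (-0.61 to 0.21), Cxcl14 (-0.11 to 0.11) and Cxcl17 (-0.84 to 1.01) in KO at 30 weeks. The same held for the differences between ages in KO of Cxcl12 (-0.13 to 0.77), Cxcl13 (-0.24 to 0.35) and Cxcl14 (-0.15 to 0.064), and for the mean changes of Cxcl10 (-0.080 to 0.48) and Cxcl17 (-0.56 to 0.029) in A537T and Cxcl14 in KO (-0.031 to 0.086). Depth limits Ccl2, Ccl5, Cxcl9, Cxcl10, Cxcl15 and Ccl8, whose totals over the 18 libraries were 60 to 198 reads.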

Other observations

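Cxcl16, a membrane-bound and shed ligand of the receptor Cxcr6, lay above WT without overlap in all 4 comparisons. It is not one of the 10 chemokines, and was singled out after its values were seen. It had 93.9 normalized counts in KO against 54.9 in WT and 90.8 in A537T against 53.5 at 10 weeks, and 113 in KO against 66.6 and 96.4 in A537T against 68.4 at 30 weeks. The log2 fold changes were 0.75, 0.74, 0.73 and 0.49, with limma adjusted p of 0.183, 0.746, 0.392 and 0.333, and both lines of an age share their WT libraries. Of genes with a mean of at least 1, 10.9, 5.53, 8.02 and 8.89% lay above WT without overlap, in the same order. The share of genes above in all 4 comparisons was not counted.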
